A study of Homo sapiens with 6 samples.

Results

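The proteasome genes of DLD-1 cells, with the factors that assemble the particle, were examined after transfection with an siRNA against lncSLCC1. The members were taken by name, as every symbol in the count tables that reads PSMA, PSMB, PSMC, PSMD, PSME, PSMF or PSMG followed only by a number. This gave 48 of the 56638 symbols listed. The choice was made with earlier results of these data known. DLD-1 is an established human colorectal cancer line, and all 6 libraries came from this 1 line, grown in the same serum-containing medium. The control siRNA group and the lncSLCC1 siRNA group held 3 libraries each, and both groups were transfected. These are called control libraries and knockdown libraries, numbered 1 to 3 as in the labels. The siRNA sequences used, and the time from transfection to harvest, are not known here. No label states that libraries of a group were separate cultures. Each p-value therefore weighs the difference between groups only against the spread of these libraries, and that spread may be technical. The name matches what the genes encode, and 46 of the 48 members had enough reads to be tested. The other two, PSMA8 and PSMB11, encode subunits of the testis and of the thymus. PSMA8 had 0 reads in all 6 libraries, and PSMB11 had 1 read in knockdown library 2.

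The proteasome is the large protease that degrades proteins tagged with ubiquitin. Its 20S core is a barrel of stacked rings, in which alpha subunits form the outer gate and beta subunits line the chamber and carry the cutting sites. The 19S regulatory particle caps the barrel, with a base of ATPases that unfold the substrate and a lid that removes the ubiquitin. Assembly factors bring the subunits together and then leave or are degraded, and alternative activators can replace the 19S cap. In many cells the transcription factor NFE2L1 raises the proteasome genes together, by binding antioxidant response elements in their promoters.

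The stretches upstream of PSMG1, PSMG2, PSMG4 and PSME4 are shown because PSMG1 and PSME4 were called in the comparison below and PSMG2 and PSMG4, which were not, belong to the same group of chaperones as PSMG1. They were read from the RefSeq promoter table (build GRCh38.p14). Each run is the 250 bases before the gene's start, printed 5′ to 3′ on the gene's own strand. Capitals mark TGACNNNGC or TGAGNNNGC, 2 forms of the antioxidant response element, and CCAAT, the box bound by the factor NF-Y, on either strand. No 2 marked motifs overlap in these runs.
PSMG1: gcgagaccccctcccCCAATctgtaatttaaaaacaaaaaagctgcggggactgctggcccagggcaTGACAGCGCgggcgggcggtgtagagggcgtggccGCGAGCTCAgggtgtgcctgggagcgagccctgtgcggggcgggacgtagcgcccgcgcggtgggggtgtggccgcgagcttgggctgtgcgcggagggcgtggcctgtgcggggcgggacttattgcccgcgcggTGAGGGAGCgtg
PSMG2: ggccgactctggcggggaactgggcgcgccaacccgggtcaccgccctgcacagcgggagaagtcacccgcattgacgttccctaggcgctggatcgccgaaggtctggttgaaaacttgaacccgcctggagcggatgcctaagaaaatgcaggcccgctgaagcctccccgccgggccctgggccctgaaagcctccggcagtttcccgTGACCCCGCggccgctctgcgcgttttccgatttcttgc
PSMG4: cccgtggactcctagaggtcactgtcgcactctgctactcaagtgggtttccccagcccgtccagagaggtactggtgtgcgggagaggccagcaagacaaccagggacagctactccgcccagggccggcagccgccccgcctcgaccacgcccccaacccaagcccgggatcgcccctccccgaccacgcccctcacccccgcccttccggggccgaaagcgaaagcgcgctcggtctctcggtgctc
PSME4: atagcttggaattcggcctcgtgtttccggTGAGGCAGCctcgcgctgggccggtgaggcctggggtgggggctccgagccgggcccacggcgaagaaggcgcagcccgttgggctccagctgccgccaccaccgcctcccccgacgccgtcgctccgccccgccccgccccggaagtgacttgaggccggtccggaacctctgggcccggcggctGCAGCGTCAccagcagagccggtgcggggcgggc
They lie at chr21:39183452-39183701 (minus strand), chr18:12658488-12658737 (plus strand), chr6:3258697-3258946 (plus strand) and chr2:53970994-53971243 (minus strand). PSMG1 held 1 match to TGACNNNGC, 2 to TGAGNNNGC and 1 CCAAT box. PSMG2 held 1 match to TGACNNNGC. PSME4 held 1 match to each form of the response element, and PSMG4 held none of the 3 motifs. The table held 42 of the 48 members, and PSMA7, PSMB1, PSMB6, PSMB7, PSMD4 and PSMG3 were not matched. Of the 42, 17 (40.5%) held at least 1 form of the response element, against 24.2% of all 27303 promoters of the same length. CCAAT was in 18 of the 42 (42.9%) and in 33.0% of all promoters. These are matches of letters, not measured binding, and only the first start listed for each gene was searched.

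The libraries held 12572277 to 15568075 gene reads. The targeted RNA, listed as RP11-400N13.2, fell to 27.1% of its control level (adjusted p = 0.0027 by edgeR). Of the intestinal epithelial markers, 8 of 9 were above 1 CPM in every library, and the summed markers of fibroblasts, blood cells and endothelium stayed at or below 2.28 CPM in every library. Control library 1 stood apart from the other controls. It was above both of them for 31 of the 46 tested members and below both for 10, against 46.4% and 37.0% of all genes tested. Its log2 ratio to the mean of the other controls ran from -0.84 to 0.55 over the members, and across members it went with GC content (Spearman's rho 0.65) and with transcript length (rho -0.54). Over all tested genes with a known length these values were 0.64 and -0.41. The controls were more scattered than the knockdown libraries for 41 of the 46 members and for 76.7% of all genes. The median coefficient of variation of a member was 11.9% in controls and 3.34% after knockdown. The other controls also differed. A chi-square per gene between read counts was 17.3 and 30.6 for control library 1 against controls 2 and 3. It was 5.91 between controls 2 and 3, and 1.86 to 1.99 between knockdown libraries. Reads in no feature made up 5.42%, 6.27% and 7.18% of control libraries 1 to 3, beside 7.09% to 7.58% of the knockdown libraries. Values without control library 1 are given beside many of the results, and the part of this library in them was not otherwise tested. Leaving it out does not remove the difference between control libraries 2 and 3.

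Most of the proteasome did not pass the test after knockdown, and the exceptions were assembly factors and an activator. PSMG1 and PSMG3, both chaperones of the 20S core, fell, and PSME4, the gene of the activator PA200, rose. The other 43 tested members, among them every subunit of the 20S core and of the 19S particle, did not pass. Of the 46 tested, 1 was called higher and 2 lower by edgeR's quasi-likelihood test at an adjusted p under 0.05, together 6.52%, where 13.8% of all 15242 tested genes were called. By direction the background was 6.46% higher and 7.39% lower. At an unadjusted p under 0.05, 1 member was higher and 8 were lower, against 15.3% and 16.3% of all genes. The libraries of the 2 groups did not overlap for 2 members that were higher and 9 that were lower (19.6% of the members), and the background for these was 19.4% higher and 19.6% lower. The median log2 fold change of the members was -0.09, beside 0.01 over all tested genes, and 31 of 46 were below 0, beside 49.0% of all genes. Without control library 1 the median was -0.05, and scaled by library totals it was -0.01 where all genes had 0.08. In this bulk RNA, a lower level in each cell and fewer cells holding the transcript cannot be told apart.

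**Figure D1:**
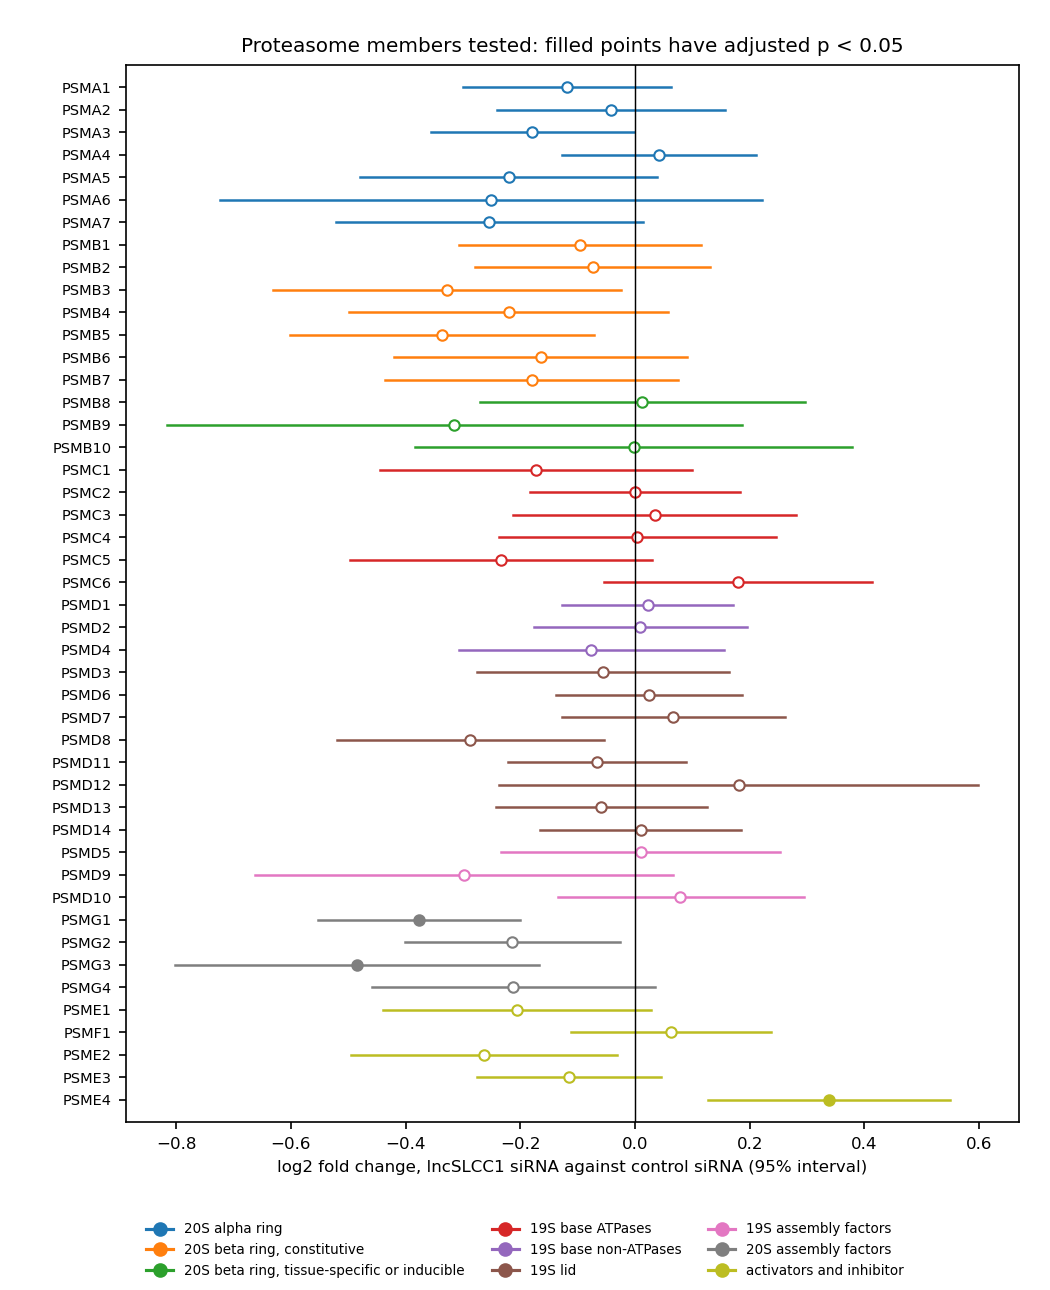
Log2 fold change of each tested proteasome member (x axis, with 95% interval), lncSLCC1 siRNA against control siRNA, coloured by role, with filled points for an adjusted p under 0.05 by edgeR. The 3 filled points are PSMG1 and PSMG3 at -0.38 and -0.49 and PSME4 at 0.34, and most of the other intervals cross 0.

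Both members that fell encode chaperones that build the 20S core. All 4 genes of these chaperones, PSMG1 to PSMG4, were lower in each knockdown library than in all controls, as were 19.6% of all genes tested. Of the 4, 2 passed the test and 2 did not, where 7.39% of all genes were called lower. PSMG1, whose product pairs with that of PSMG2 to hold the alpha ring together as it forms, stood at 91.3, 95.9 and 91.3 CPM in control libraries 1 to 3 and at 71.9, 68.7 and 73.9 CPM in knockdown libraries 1 to 3. The groups were far apart, and control library 1 lay with the other controls. The mean fell from 92.9 ± 2.67 to 71.5 ± 2.64 CPM (±SD, n = 3 per group), to 77.0% of the control level (log2 fold change of -0.38, SE 0.079, 95% interval -0.55 to -0.20, adjusted p = 0.0147 by edgeR). PSMG2, its partner, stood at 62.7, 64.8 and 58.9 CPM in controls and at 53.9, 52.4 and 54.5 CPM after knockdown. The groups did not overlap, and the difference was not called (log2 fold change of -0.21, SE 0.084, adjusted p = 0.113 by edgeR). Of 15 alternative settings PSMG2 was called in 1, without control library 1 (log2 fold change of -0.21, adjusted p = 0.0256 by edgeR). In that setting 15.5% of all genes were called lower.

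PSMG3 and PSMG4 encode a second chaperone pair that acts on the same ring. PSMG3 stood at 100.6, 81.0 and 65.5 CPM in controls and at 62.0, 54.7 and 59.8 CPM after knockdown. The controls were spread widely, and control library 3 lay only just above the highest knockdown library. The mean was 82.4 ± 17.6 and 58.8 ± 3.78 CPM (±SD, n = 3 per group), with a log2 fold change of -0.49 (SE 0.142, 95% interval -0.80 to -0.17, adjusted p = 0.0488 by edgeR). Leaving out control library 1 gave -0.32 on the log2 scale (adjusted p = 0.00428). Its call was lost by limma-voom (adjusted p = 0.0613), with library totals (0.0701) and at a mean CPM of at least 1 (0.0508). PSMG4 stood at 13.1, 13.3 and 12.8 CPM in controls and at 11.2, 10.9 and 11.8 CPM after knockdown, which was not called (log2 fold change of -0.21, SE 0.111, adjusted p = 0.218 by edgeR). Summed over the 4 genes, the level was 251 ± 19.99 CPM in controls and 195 ± 7.48 CPM after knockdown (±SD, n = 3 per group).

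The calls of PSMG1, PSMG3 and PSME4 were each lost when some single libraries were left out. Without control library 2, or without knockdown library 1, 2 or 3, none of the 3 was called by edgeR. Calls over all genes also fell in these 4 settings, to 213 to 272 higher and 244 to 352 lower. With all libraries they were 984 and 1126. The adjusted p of PSMG1 was then 0.0744, 0.0837, 0.105 and 0.0726, that of PSMG3 was 0.138, 0.118, 0.189 and 0.149, and that of PSME4 was 0.136, 0.14, 0.172 and 0.142. The log2 fold changes in these 4 settings stayed between -0.40 and -0.35 for PSMG1, between -0.53 and -0.44 for PSMG3 and between 0.32 and 0.35 for PSME4. Without control library 3 all 3 were called, with adjusted p-values of 0.0106, 0.005 and 0.00777 in the same order. Under other settings the same 3 genes were joined by further ones, mostly lower. Without control library 1, where 29.0% of all genes were called, 2 members were higher and 6 lower, with PSMA3, PSMB5, PSMD8 and PSMG2 added on the lower side and PSMC3 on the higher. Without control library 3, 1 was higher and 10 were lower, where 10.3% and 13.4% of all genes were; PSMA7, PSMB3, PSMB5, PSMB6, PSMC5, PSMD8, PSME1 and PSME2 were added. With GC content and length offsets 1 was higher and 8 were lower, where 11.7% and 19.8% of all genes were, with PSMA3, PSMB3, PSMB5, PSMD8, PSME2 and PSME3 added. With no low-count filter 1 was higher and 6 were lower, where 5.33% and 5.57% of all 30025 genes with at least 1 read were. That background holds many weakly counted genes beyond the 15242 of the main setting, so the member counts cannot be set against it directly. DESeq2 called these 3 and no other member (6.21% of all genes higher and 10.4% lower), and limma-voom called PSME4 and PSMG1 (6.34% and 6.87%).

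The 19S assembly factors among the members gave no call. PSMD5 holds part of the ATPase ring until the particle is complete, and it stood at 94.3, 116.5 and 126.4 CPM in controls and at 118.2, 111.0 and 110.3 CPM after knockdown. Control library 1 was the lowest of the 6, and the means of 112 ± 16.4 and 113 ± 4.34 CPM (±SD, n = 3 per group) were close. PSMD9 was a weakly counted gene, at 9.18, 9.83 and 9.69 CPM in controls and 7.91, 9.32 and 6 CPM after knockdown. The groups overlapped, and the last library rested on 77 reads (log2 fold change of -0.30, SE 0.163, adjusted p = 0.24 by edgeR). PSMD10, which encodes gankyrin, stood at 29.6, 34.1 and 32.6 CPM in controls and at 33.68, 34.35 and 33.74 CPM after knockdown (log2 fold change of 0.08, SE 0.096, adjusted p = 0.608 by edgeR). The maturation factor POMP, which is not named as a PSM gene, stood at 92.9, 126.3 and 109.1 CPM in controls and at 106.7, 107.1 and 114.2 CPM after knockdown (adjusted p = 0.993 by edgeR). PAAF1, another chaperone of the 19S base, had means of 17.2 ± 3.43 and 22.5 ± 1.59 CPM (±SD, n = 3 per group) and did not pass (log2 fold change of 0.39, SE 0.147, adjusted p = 0.103 by edgeR). Without control library 1 it was called higher by edgeR (0.55, adjusted p = 0.000434), where 13.5% of all genes were. With no low-count filter PAAF1 was also called (0.39, adjusted p = 0.0413 by edgeR).

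**Figure D2:**
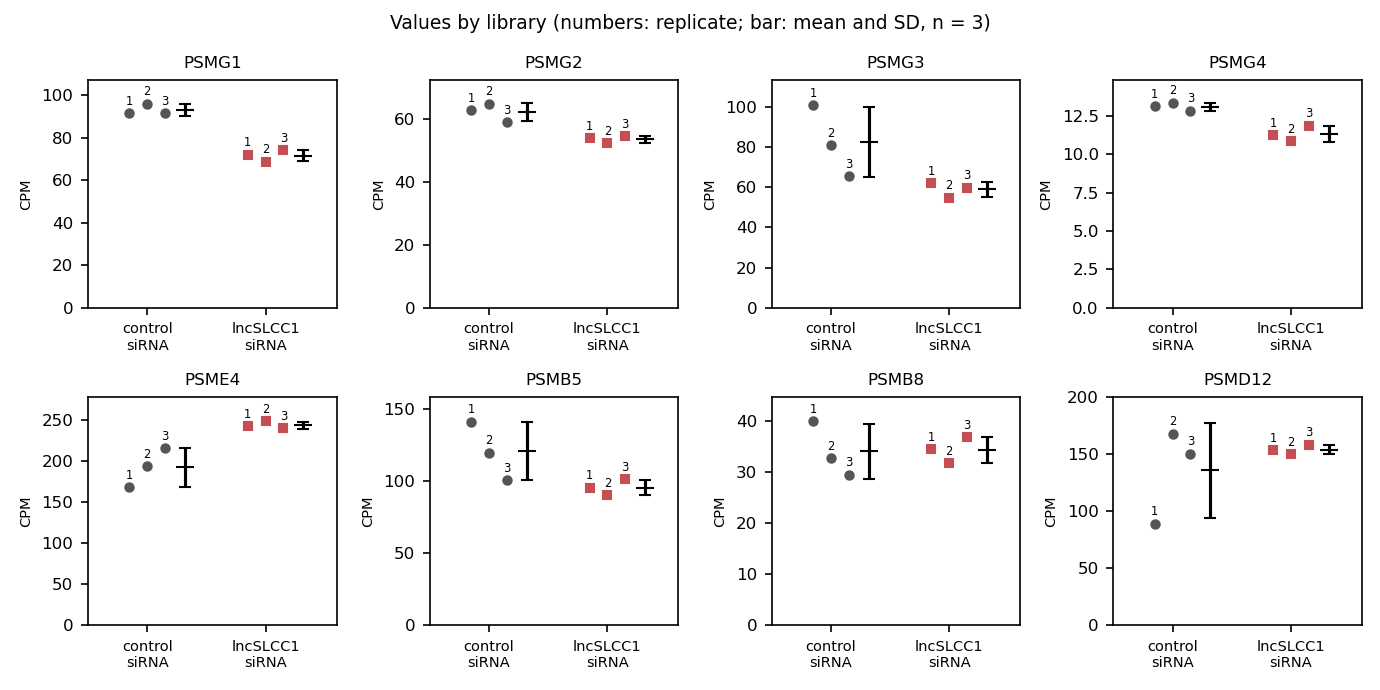
CPM of 8 members in each library (points, labelled by replicate number) with the mean and SD of each group beside them, on axes that start at 0. The 4 assembly genes PSMG1 to PSMG4 are lower in all knockdown libraries, and PSME4 is higher in all of them. The controls of PSMG2, PSMG3, PSME4, PSMB5, PSMB8 and PSMD12 spread more widely than the knockdown libraries.

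Among the activators and the inhibitor, 1 of 5 rose and 0 fell, beside 6.46% and 7.39% of all genes. PSME4 encodes PA200, a large nuclear activator that caps the core in place of the 19S particle. It stood at 168, 193 and 215 CPM in controls and at 242, 248 and 239 CPM after knockdown. Every knockdown library lay above every control, and control library 1 was the lowest. The mean rose from 192 ± 23.7 to 243 ± 4.44 CPM (±SD, n = 3 per group), to 126% of the control level (log2 fold change of 0.34, SE 0.095, 95% interval 0.13 to 0.55, adjusted p = 0.0423 by edgeR). Leaving out control library 1 gave a log2 fold change of 0.25 (adjusted p = 0.00228). With GC content and length offsets it was 0.18 (adjusted p = 0.0139), and with the replicate block it was 0.34 (adjusted p = 0.0415).

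PSME1 and PSME2, the interferon-inducible subunits of the 11S activator PA28, gave no call. PSME1 stood at 133.9, 114.1 and 101.5 CPM in controls and at 102.0, 97.6 and 103.5 CPM after knockdown, so that control library 3 lay among the knockdown libraries (log2 fold change of -0.21, SE 0.105, adjusted p = 0.206 by edgeR). PSME2 stood at 163.5, 148.0 and 124.3 CPM in controls and at 120.3, 116.0 and 126.8 CPM after knockdown, again with control library 3 inside the range of the knockdown libraries (log2 fold change of -0.26, SE 0.104, adjusted p = 0.117 by edgeR). PSME3, the nuclear form of the 11S activator, stood at 285.1, 260.6 and 264.6 CPM in controls and at 250.6, 246.6 and 251.1 CPM after knockdown, with means of 270 ± 13.1 and 249 ± 2.45 CPM (±SD, n = 3 per group). Its groups did not overlap, and the difference was not called (log2 fold change of -0.11, SE 0.072, adjusted p = 0.302 by edgeR). PSMF1, the inhibitor PI31, stood at 169.9, 151.9 and 150.7 CPM in controls and at 164.7, 166.9 and 161.8 CPM after knockdown. Control library 1 was the highest of the 6, and the groups overlapped (log2 fold change of 0.06, SE 0.078, adjusted p = 0.617 by edgeR).

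None of the 14 constitutive 20S core genes, PSMA1 to PSMA7 and PSMB1 to PSMB7, passed the test. Their log2 fold changes ran from -0.34 to 0.04 with a median of -0.18. Of the 14, 13 were below 0, beside 49.0% of all genes. The unadjusted p by edgeR was under 0.05 for 3 of them, all lower, beside 16.3% of all genes that were lower. Summed over these genes, the level was 3538, 3039 and 2740 CPM in controls and 2774, 2689 and 2845 CPM after knockdown. Control library 1 was well above the other libraries, and control library 3 lay inside the range of the knockdown libraries. With control library 1 left out the median of the 14 was -0.07 and 2 were called lower, PSMA3 and PSMB5, where 15.5% of all genes were called lower in that setting.

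In the alpha ring PSMA3 had the smallest p, at 174.0, 178.7 and 162.9 CPM in controls and 147.5, 146.0 and 161.8 CPM after knockdown. The groups did not overlap, by a narrow margin between control library 3 and knockdown library 3 (log2 fold change of -0.18, SE 0.079, adjusted p = 0.153 by edgeR; without control library 1, -0.17 and 0.0373). In the beta ring PSMB3 stood at 303.9, 228.4 and 197.5 CPM in controls and at 196.2, 190.9 and 194.0 CPM after knockdown. The knockdown libraries lay close together and the controls did not (log2 fold change of -0.33, SE 0.136, adjusted p = 0.13 by edgeR; without control library 1, -0.14 and 0.0902).

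**Figure D3:**
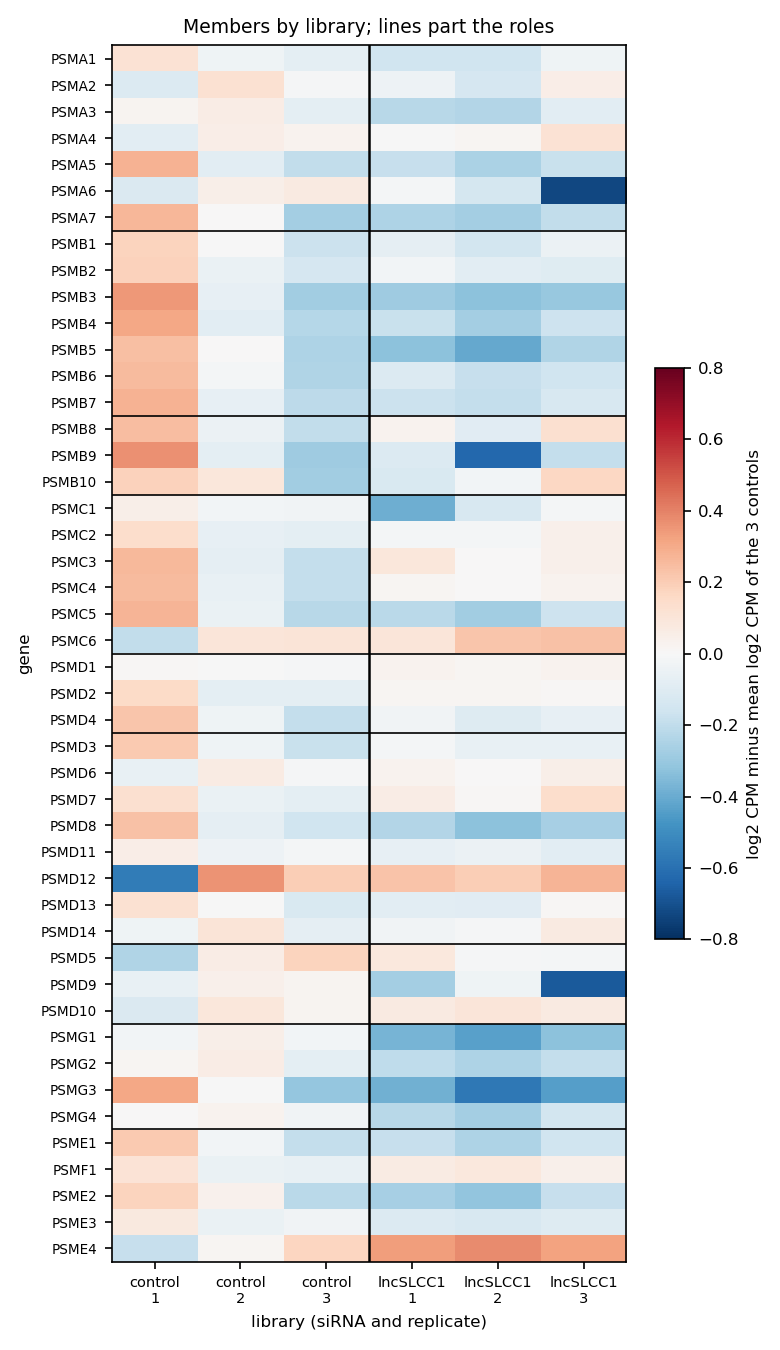
Log2 CPM of each tested member in each library (columns) minus the mean log2 CPM of its 3 controls, with members in rows parted by role. Control library 1 is above the other controls for most 20S genes and below them for PSMD12, whereas the rows of PSMG1, PSMG2, PSMG3 and PSMG4 are below the control mean in all 3 knockdown libraries.

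The catalytic subunits come in constitutive and interferon-inducible forms that replace each other in the beta ring. PSMB5, the constitutive subunit that cuts after hydrophobic residues and is the main target of proteasome inhibitors, stood at 141.2, 119.7 and 100.8 CPM in controls and at 95.3, 90.04 and 101.1 CPM after knockdown. Control library 3 lay just below knockdown library 3, and the difference did not pass (log2 fold change of -0.34, SE 0.119, adjusted p = 0.0856 by edgeR). Without control library 1 it did, at a smaller size (-0.21, adjusted p = 0.0276), and also without control library 3 (-0.46, adjusted p = 0.0102). Its inducible counterpart PSMB8 stood at 39.9, 32.6 and 29.4 CPM in controls and at 34.4, 31.7 and 36.8 CPM after knockdown, with full overlap (log2 fold change of 0.01, SE 0.127, adjusted p = 0.958 by edgeR). The sign of this value turned in 3 settings that left out a library.

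Set against each other within a library, the PSMB8 and PSMB5 values were steadier than either alone. Per kb of coding length, PSMB8 was at 26.9%, 26.0% and 27.8% of the PSMB5 level in control libraries 1 to 3 and at 34.4%, 33.5% and 34.7% in knockdown libraries 1 to 3. All knockdown libraries lay above all controls, and control library 1 lay between the other controls. The mean was 26.9 ± 0.924% in controls and 34.2 ± 0.608% after knockdown (±SD, n = 3 per group), and an exact two-sided permutation test gave p = 0.1, the smallest that 3 against 3 libraries allow, or 0.3 adjusted over the 3 pairs compared. With 3 libraries per group, this permutation test could not have passed for any of the 3 pairs, so it decides nothing about them. The values show only that the ratios of PSMB8 to PSMB5 did not overlap between the groups in these libraries. Neither PSMB8 nor PSMB5 was called by edgeR with all libraries. PSMB9 was at 2.22 ± 0.154% and 2.01 ± 0.327% of PSMB6 (exact permutation p = 0.6), and PSMB10 was at 1.79 ± 0.175% and 2.02 ± 0.172% of PSMB7 (exact permutation p = 0.2), both with overlapping groups (±SD, n = 3 per group).

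PSMB6 and PSMB7 encode the other constitutive catalytic subunits, which cut after acidic and after basic residues. PSMB6 stood at 213.7, 177.7 and 151.9 CPM in controls and at 166, 157.9 and 160.8 CPM after knockdown. PSMB7 stood at 353.3, 278.8 and 252.6 CPM in controls and at 258.6, 255.4 and 266.7 CPM after knockdown. In both, control library 1 was the highest and control library 3 the lowest of the 6, and neither passed the test (log2 fold changes of -0.16, SE 0.115, and -0.18, SE 0.115, adjusted p = 0.356 and 0.309 by edgeR). Their inducible counterparts PSMB9 and PSMB10 were weakly counted, at 37 to 66 and 65 to 84 reads per library. PSMB9 stood at 4.699, 3.449 and 2.993 CPM in controls and at 3.388, 2.363 and 3.195 CPM after knockdown (log2 fold change of -0.32, SE 0.225). PSMB10 stood at 5.838, 5.467 and 4.229 CPM in controls and at 4.716, 5.045 and 5.766 CPM after knockdown (log2 fold change of -0.00, SE 0.170).

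The 17 genes of the 19S regulatory particle were centred near no difference. Their median log2 fold change was 0.00 and the values ran from -0.29 to 0.18. Of the 17, 8 were below 0, beside 49.0% of all genes. Summed, they stood at 4013, 3653 and 3445 CPM in controls and at 3634, 3570 and 3671 CPM after knockdown, all inside the range of the controls. PSMD1, the largest scaffold of the base, varied least among the 46 across the 6 libraries, at 349.3, 345.9 and 344.4 CPM in controls and 353.7, 349.6 and 352.6 CPM after knockdown. The groups just parted, on a log2 fold change of 0.02 with a 95% interval from -0.13 to 0.17. PSMD8, a lid subunit, had the smallest p of the 17, at 293.9, 237.1 and 223.2 CPM in controls and 211.9, 198.5 and 207.3 CPM after knockdown. The groups did not overlap, and the test was not passed (log2 fold change of -0.29, SE 0.104, adjusted p = 0.092 by edgeR; without control library 1, -0.16 and 0.0301).

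Control library 1 reached furthest from the other controls at PSMD12, another lid gene. PSMD12 stood at 89.0, 168.2 and 150.6 CPM in controls and at 153.4, 150.3 and 158.6 CPM after knockdown. The knockdown libraries lay close to control library 3, and the log2 fold change of 0.18 (SE 0.187) turned to -0.05 without control library 1. Of the ATPases, PSMC6 was the highest at 0.18 (SE 0.105, adjusted p = 0.268 by edgeR), from means of 52.0 ± 5.95 and 58.9 ± 3.05 CPM (±SD, n = 3 per group). PSMC3 was at 0.03 (SE 0.111) with all libraries and was called higher without control library 1 (0.17, adjusted p = 0.0211), where 13.5% of all genes were called higher.

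**Figure D4:**
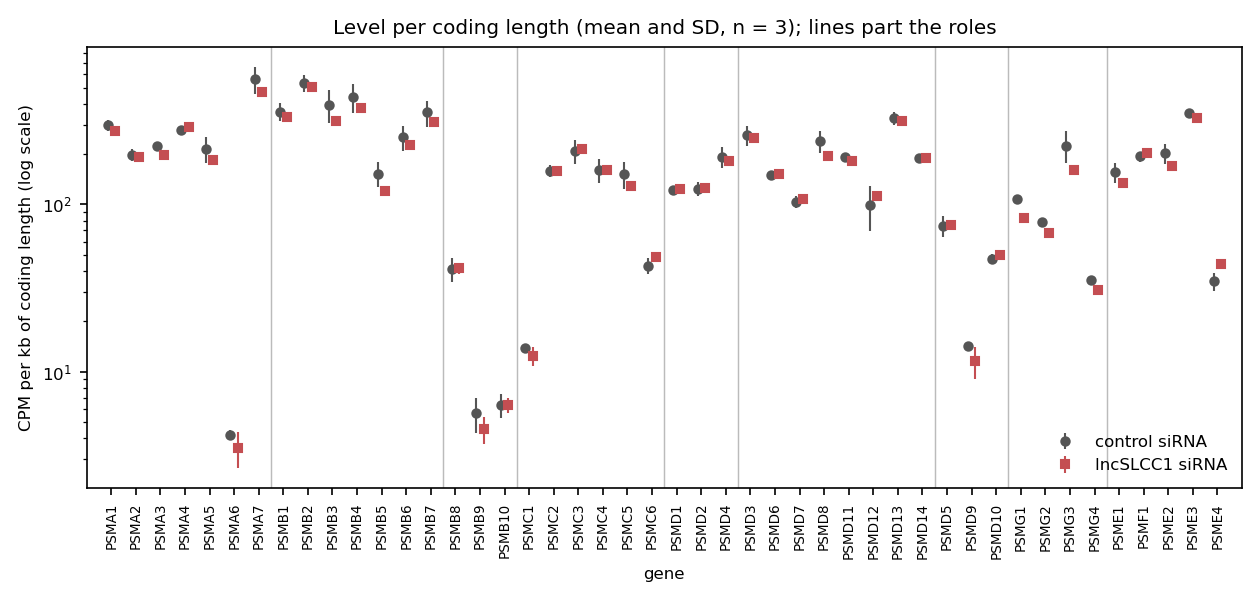
Level of each counted member as CPM per kb of coding length on a log axis, mean and SD of 3 libraries per group. PSMA6 at 4.20 and PSMC1 at 13.9 in controls lie far below the other subunits of their rings, and the inducible PSMB8, PSMB9 and PSMB10 lie below the constitutive beta genes.

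Subunits of the core enter the particle in equal number, but their transcript levels per length were not equal in the tables. Per kb of coding length, the control means of the core genes other than PSMA6 ran from 153 CPM for PSMB5 to 559 CPM for PSMA7, with a median of 297. Per kb of the whole transcript they ran from 41.7 CPM for PSMA5 to 418 CPM for PSMA7, with a median of 177. PSMB5 was then at 93.2, so the lowest gene depended on the length used. PSMA6, an alpha subunit that no core can lack, was listed at 4.20 ± 0.295 CPM per coding kb in controls (SD, n = 3), from 40 to 50 reads per control library. In the annotation used here, which is not the one behind the counts, exons of another gene on the same strand, AL121594.1, cover 81.0% of its transcript. PSMC1, an ATPase of the base, was listed at 13.9 ± 0.417 CPM per coding kb in controls (SD, n = 3), where the other genes of the 19S particle ran from 43.0 to 327. Of its transcript 82.2% is covered by exons of NRDE2 on the opposite strand, and the pseudogene PSMC1P1 took 92.7% to 94.5% of the reads on PSMC1 and PSMC1P1 together. Summed, PSMC1 and PSMC1P1 stood at 315, 260 and 248 CPM in controls and at 253, 253 and 259 CPM after knockdown, with overlap. The values of PSMA6 and PSMC1 are therefore uncertain. Exons of other genes also cover 45.3% of the transcript of PSMB10, 43.8% of PSMD9, 17.3% of PSMG2 and 12.04% of PSME2. Among the other members, PSMA1, PSMA2, PSMD7, PSMC5 and PSMD13 are covered at 53.2%, 54.1%, 50.4%, 27.2% and 15.9%, and the rest at less than 10%. Of 30 listed pseudogenes of the members, 19 had 0 reads in all libraries, and PSMA6P1 and PSMC1P1 alone had at least 100 in each.

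Other genes of the pathway were taken from 4 lists of 50 genes, of which 49 were tested. By edgeR 2 were higher and 6 lower, 4.08% and 12.2% beside 6.46% and 7.39% of all genes. Of 10 tested genes that control proteasome genes, 1 rose and 2 fell. The other 7, MAFK among them, were not called. NFE2L1, the transcription factor that drives proteasome genes when the protease is inhibited, stood at 165.9, 148.9 and 155.8 CPM in controls and at 217.9, 225.0 and 211.0 CPM after knockdown. The groups were far apart, and control library 1 was the nearest to the knockdown libraries. The mean rose from 157 ± 8.58 to 218 ± 6.98 CPM (±SD, n = 3 per group; log2 fold change of 0.47, SE 0.076, 95% interval 0.30 to 0.64, adjusted p = 0.00475 by edgeR). It was called in all 15 alternatives, at log2 fold changes of 0.43 to 0.55. The highest adjusted p was 0.0491, by edgeR without knockdown library 2. Of the genes of its small MAF partners, 2 of 3 fell, from 32 ± 4.80 to 19.7 ± 1.31 CPM for MAFF (log2 fold change of -0.70, SE 0.130, adjusted p = 0.00909 by edgeR) and from 83.3 ± 8.23 to 61.0 ± 1.96 CPM for MAFG (-0.45, SE 0.094, adjusted p = 0.0147; ±SD, n = 3 per group). MAFK was not called (-0.32, SE 0.111, adjusted p = 0.0811 by edgeR; without control library 1, -0.31 and 0.0277). Without control library 2, knockdown library 2 or knockdown library 3 the calls of MAFF and MAFG were lost, with adjusted p-values of 0.057, 0.0587 and 0.064 for MAFF and 0.0531, 0.0719 and 0.0862 for MAFG, whose call was also lost without knockdown library 1 (0.0838).

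Of the genes for proteins that bind the particle, AKIRIN2 fell and UBLCP1 rose among 14 tested, beside 7.39% and 6.46% of all genes. AKIRIN2, which carries proteasomes into the nucleus, stood at 40.8, 41.3 and 39.0 CPM in controls and at 28.8, 26.2 and 24.9 CPM after knockdown. The controls were tight and the groups far apart (log2 fold change of -0.60, SE 0.098, adjusted p = 0.00533 by edgeR). The call held in all 15 alternatives, but only just without knockdown library 3 (adjusted p = 0.04999 by edgeR). UBLCP1, a phosphatase of nuclear proteasomes, stood at 14.7, 26.6 and 24.5 CPM in controls and at 38.9, 39.4 and 40.9 CPM after knockdown. Control library 1 was the lowest, and without it the log2 fold change went from 0.85 (SE 0.185, adjusted p = 0.0167 by edgeR) to 0.63. Its call was lost without knockdown library 1, 2 or 3 (adjusted p = 0.0627, 0.0732 and 0.0763). ADRM1, a ubiquitin receptor of the base, had groups that did not overlap, at 105 ± 13.9 and 83.9 ± 3.63 CPM (±SD, n = 3 per group), and did not pass (log2 fold change of -0.33, SE 0.103, adjusted p = 0.061 by edgeR). Without control library 1 it was called lower by edgeR (-0.22, adjusted p = 0.0117), where 15.5% of all genes were. DESeq2 also called ADRM1 (-0.34, adjusted p = 0.0349).

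**Figure D5:**
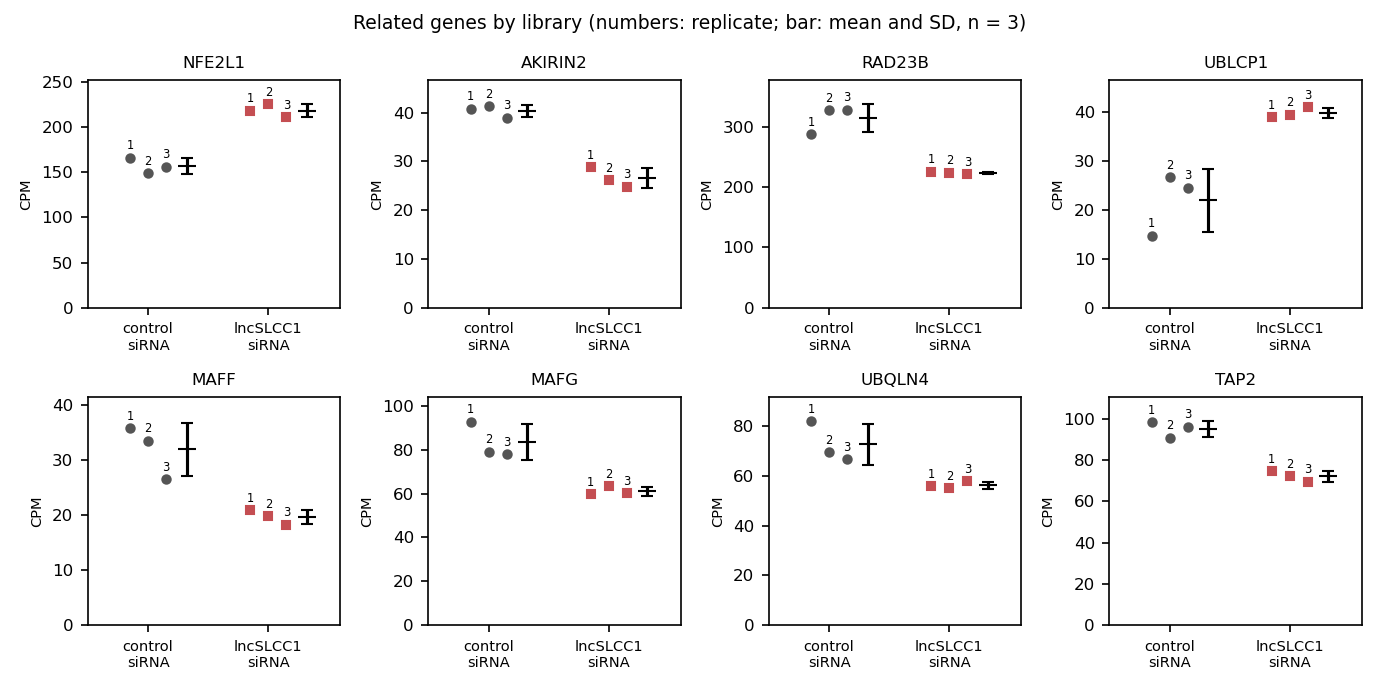
CPM of the 8 related genes called by edgeR in each library (points, labelled by replicate number) with the mean and SD of each group, on axes that start at 0. NFE2L1 and UBLCP1 are higher in all knockdown libraries, and AKIRIN2, RAD23B, MAFF, MAFG, UBQLN4 and TAP2 are lower in all of them.

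Among ubiquitin genes and the shuttles that bring tagged proteins to the proteasome, 2 of 13 fell and 0 rose, beside 7.39% and 6.46% of all genes. RAD23B, a shuttle that also takes part in DNA repair, stood at 287.5, 326.8 and 327.7 CPM in controls and at 225.0, 223.4 and 221.6 CPM after knockdown. All knockdown libraries lay below all controls and within a narrow band (log2 fold change of -0.49, SE 0.078, adjusted p = 0.00462 by edgeR). The call held in all 15 alternatives, with a highest adjusted p of 0.0453 by edgeR without knockdown library 3. UBQLN4, another shuttle gene, fell from 72.7 ± 8.14 to 56.2 ± 1.44 CPM (±SD, n = 3 per group; log2 fold change of -0.37, SE 0.099, adjusted p = 0.0362 by edgeR). That call was lost without control library 2 (adjusted p = 0.0934) and without knockdown library 1, 2 or 3 (0.136, 0.16 and 0.124). UBB, a polyubiquitin gene, was at 149.1, 124.5 and 99.35 CPM in controls and at 98.18, 99.68 and 109.8 CPM after knockdown (log2 fold change of -0.28, SE 0.133, adjusted p = 0.182 by edgeR). Control library 1 was the highest, and the groups overlapped. Of 12 antigen processing genes, TAP2, a subunit of the peptide transporter fed by the proteasome, was the 1 that fell and 0 rose, from 95.2 ± 3.83 to 72.2 ± 2.61 CPM (±SD, n = 3 per group; log2 fold change of -0.40, SE 0.080, adjusted p = 0.0126 by edgeR). Its call was lost without knockdown library 1, 2 or 3 (adjusted p = 0.0629, 0.0822 and 0.0891).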

How the data were processed

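RNA of 6 DLD-1 libraries, 3 transfected with control siRNA and 3 with lncSLCC1 siRNA, was measured by sequencing. The values are raw read counts per gene symbol as deposited by the authors, 1 table per library. The submitters' processing notes name TopHat2 2.0.11 and HTSeq, with builds hg19 and GRCh37; the annotation release and the strand setting were not given in the sources used here, so reads of overlapping genes, antisense ones included, may be shared. Summary lines of HTSeq (5.42% to 7.58% no feature, 8.83% to 10.1% ambiguous, 12.8% to 13.8% not unique) entered neither library sizes nor tests.

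Genes were tested with edgeR's quasi-likelihood method (edgeR version 4.0.16 under R version 4.3.3), with TMM scaling, the default count filter, no covariate and Benjamini-Hochberg adjustment over 15242 genes, at a threshold of 0.05. CPM used TMM library sizes. Each standard error was derived from a gene's fold change and F statistic. The members, gene lists and naming rule (members called; catalytic, activator, inhibitor and assembly genes; called genes of each related list with POMP, NFE2L1 and UBB) were chosen with earlier results of these data known. A few other members and PAAF1 and ADRM1 were named after their values were seen, and 1 gene of the naming rule is not reported here. Lengths and exon overlaps came from GENCODE release 29 (GRCh38), and 89.6% of tested genes and all 48 members had a length and GC content. Promoters came from RefSeq (GRCh38.p14). No 2 libraries of a group agreed within sampling noise. The fit was also run on simulated counts that had the same dispersion for all genes and both groups. The real controls were more scattered than the knockdown libraries, so that run does not test the fit for such data. Alternatives were other scalings and filters, DESeq2 1.42.0, limma-voom (limma 3.58.1), the replicate number as a block, GC content and length offsets (splines with 5 degrees of freedom), and each library left out.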

Additional observations from a re-analysis of the deposited data

How the results depend on the processing

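Counts of calls moved with the libraries and the model. Proteasome members called higher numbered 1 and ran from 0 to 2 with 1 library left out, and those called lower numbered 2 and ran from 0 to 10. The lower count was 1 with library totals, with a mean CPM of at least 1 and by limma-voom, 6 with no low-count filter, 8 with GC content and length offsets and 6 with those offsets and the replicate block. Related genes called higher numbered 2 and ran from 1 to 5 with 1 library left out, and were 5 with no low-count filter and 4 with the offsets, with or without the block. Related genes called lower numbered 6 and ran from 2 to 16 with 1 library left out, and were 13 with no low-count filter, 11 by DESeq2 and 20 with the offsets, with or without the block. Over all genes 984 were higher and 1126 lower; these ran from 213 to 2112 and from 244 to 2431 with 1 library left out. They were 1788 and 3022 with the offsets and 1632 and 2827 with the offsets and block, and 1600 were higher with no low-count filter. With library totals 1442 were higher and 814 lower. The cause of these moves was not tested. The median core level per kb was 297 by coding and 177 by transcript length. The median log2 fold change of the members stayed below 0 in all 15 alternatives (-0.15 to -0.01).

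Of the genes followed through every setting, those near 0 that did not pass the test changed sign as follows, for causes that were not tested. PSMB8 was -0.019, -0.085 and -0.041 without control library 2, control library 3 and knockdown library 3, and at most 0.141 with 1 library left out. PSMD5 was -0.004 by DESeq2, -0.102 with the offsets and with the offsets and block, -0.103 without control library 1 and -0.024 without knockdown library 1, and at most 0.099 with 1 library left out. PSMB10 was 0.068 with library totals, 0.004 at a mean CPM of at least 1, 0.006 by limma-voom, 0.094 and 0.092 with the offsets without and with the block, 0.086 and 0.037 without control libraries 1 and 2, and 0.059 and 0.014 without knockdown libraries 1 and 2; the lowest with 1 library left out was -0.134. PSMC3 was -0.010 and -0.062 without control libraries 2 and 3 and at most 0.174 with 1 library left out. Without control library 1 PSMD12 was -0.050 and PSMB2 was 0.024, and the other ends of their ranges with 1 library left out were 0.360 and -0.143. That setting also turned 7 members that were not followed through the other settings: PSMD3 to 0.055, PSMD4 to 0.042, PSMD13 to 0.004, PSMC2 to 0.071, PSMD6 to -0.005, PSMD14 to -0.009 and PSMA4 to -0.0003. PSMD1 was -0.040 and -0.039 with the offsets without and with the block. POMP was 0.064 with library totals, 0.005 at a mean CPM of at least 1, 0.007 by limma-voom, 0.008 with the replicate block, 0.110 without control library 2 and 0.014 and 0.011 without knockdown libraries 1 and 2; the lowest with 1 library left out was -0.109.

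Replicate numbers were those of the titles, and the deposited tables carry other numbers in their names. Libraries of the same title number did not deviate together (correlations 0.131, -0.007 and -0.004), so the numbers were not taken to pair them. With the replicate block 993 genes were higher and 1059 lower, with 1 member higher and 2 lower. Counts of 24 to 84 reads limit PSMA6, PSMB9, PSMB10 and PSMD9 in some libraries.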
